A study of Drosophila melanogaster with 2 samples.

Results

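The genes described here are 45 segmentation and dorsoventral patterning genes of Drosophila melanogaster, out of 13968 protein-coding genes. They are a list of named genes with no threshold on any value, drawn up with earlier results of these data known: 7 gap genes, the maternal and posterior gene cad, 3 head gap genes, 9 pair-rule genes, 8 segment polarity genes, 3 genes of the ventral side, 5 of the neurogenic ectoderm and 9 of the dorsal side. For each, every binding region was read over the whole locus, meaning the gene body and 10 kb on either side. The protein mapped was CG6654, a C2H2 zinc finger protein, by chromatin immunoprecipitation and sequencing (ChIP-seq) of whole embryos. The flies were a single transgenic line, strain CG6654-GFP, with a stable insertion of CG6654 fused at its C terminus to the fluorescent protein eGFP, and an anti-GFP antibody pulled the fusion down. Male and female embryos of 0 to 12 h were pooled, and there was 1 group with 2 biological replicates, which carry the numbers 1 and 3. The sources used here give neither the promoter of the fusion nor whether untagged protein remained. All stages and cell types in that span are mixed in each value, so a site used in a few cells and a weak site used in many cannot be told apart.

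The body plan of the fly embryo is laid down by a cascade of transcription factors and signals. Along the head-to-tail axis, maternal gradients set broad domains of gap gene expression, gap proteins position the stripes of pair-rule genes, and pair-rule proteins set the segment polarity genes that hold each segment boundary through Wingless and Hedgehog signalling. Across the other axis, the Dorsal gradient switches on genes of the mesoderm and neurogenic ectoderm, and Decapentaplegic signalling patterns the dorsal side. Many of these genes are controlled by several enhancers spread over long stretches of intron and flanking DNA, which is why whole loci and not start sites alone were read.

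Of the 45 patterning genes, 19 had a summit of the authors' reproducible peak set in the locus (42.2%), against 46.8% of all protein-coding genes, so the count is close to the background. That set, selected with an irreproducible discovery rate (IDR) procedure, has 2962 peaks. What stood out was how unevenly the peaks were spread. The locus of ush, which encodes the zinc finger cofactor U-shaped, held 12 IDR summits, that of ptc, which encodes the Hedgehog receptor, held 8, and that of brk, which encodes a repressor of Decapentaplegic targets, held 6. Only 5 of the 13968 protein-coding loci held as many as ush or more, itself included, 41 held as many as ptc or more and 89 as many as brk or more. At the other end, all 7 gap genes lacked an IDR summit in the locus. No IDR summit lay within 500 bp of a start site of any of the 45 genes, where 10.9% of protein-coding genes had one.

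**Figure D1:**
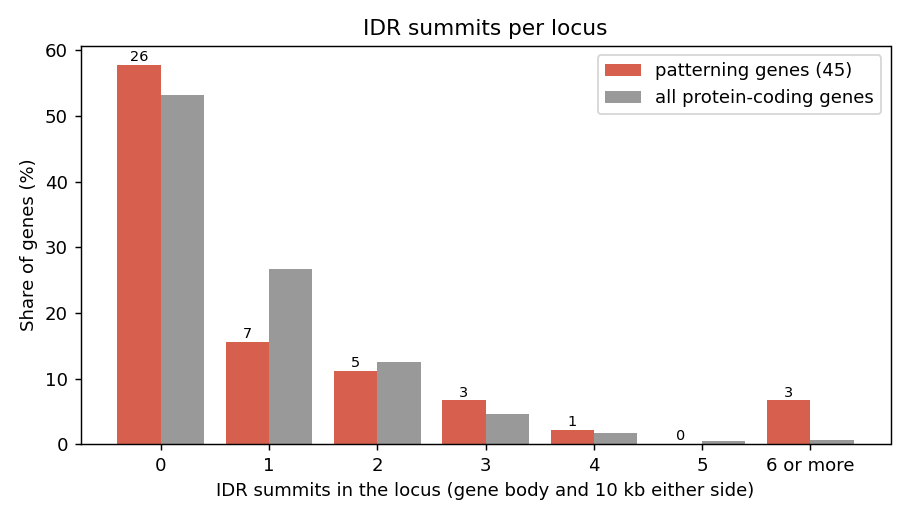
Share of genes (%) by the number of IDR summits in the locus, for the 45 patterning genes and for all protein-coding genes; digits above the bars count patterning genes. Patterning genes have 26 loci with no summit and 3 loci with 6 or more summits, which is 6.67% of them against 0.637% of all genes.

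As the counts over each bar show, 7 patterning loci held 1 summit, 5 held 2, 3 held 3 and 1 held 4. Together the 45 loci merge into 42 stretches of 1.39 Mb that hold 54 IDR summits, or 3.89 per 100 kb. All protein-coding loci held 2.40 per 100 kb and the chromosome arms as a whole 2.15. The loci of ush, ptc and brk account for 26 of the 54 summits, and without them the density was 2.25 per 100 kb, between those values. Summits of overlapping peaks were counted separately: the 54 lie in 49 merged regions, and all 2962 in 2820. Locus length bears on the count of genes: among loci under 25 kb, 8 of 24 patterning genes (33.3%) had a summit against 43.3% of all genes, and among longer loci 11 of 21 (52.4%) against 57.3%. The median locus was 24205 bp for the patterning genes and 22164 bp for all protein-coding genes.

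The DNA under 5 of these peaks is printed because each carries a different part of the account: the strongest peak in the 45 loci (ush), the strongest one shared by neighbouring genes (slp1 and slp2), a pair whose window matches the sequence pattern of CG6654 peaks elsewhere (wg and Doc2), and the only window with the 8-letter word most enriched in peaks elsewhere (sog). Each window is the summit base with 50 bp on either side, plus strand of genome Release 6 (dm6), read 5′ to 3′ from the RefSeq assembly. Capitals mark the matrix match in wg and Doc2 and the 8-letter word in sog, which has no matrix match. The windows of ush and of slp1 and slp2 hold neither and are all in lower case.
ush, chr2L:481047-481147: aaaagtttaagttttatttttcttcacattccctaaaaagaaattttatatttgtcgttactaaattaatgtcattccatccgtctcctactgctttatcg
slp1 and slp2, chr2L:3832486-3832586: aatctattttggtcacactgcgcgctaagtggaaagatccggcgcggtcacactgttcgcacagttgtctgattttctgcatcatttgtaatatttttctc
wg, chr2L:7310690-7310790: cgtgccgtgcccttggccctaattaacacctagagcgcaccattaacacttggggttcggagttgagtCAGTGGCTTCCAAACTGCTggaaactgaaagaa
Doc2, chr3L:9027045-9027145: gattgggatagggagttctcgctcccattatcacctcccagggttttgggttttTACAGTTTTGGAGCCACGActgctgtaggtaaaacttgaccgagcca
sog, chrX:15619493-15619593: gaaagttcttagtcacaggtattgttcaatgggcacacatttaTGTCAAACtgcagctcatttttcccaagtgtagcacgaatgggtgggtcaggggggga

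The pattern behind the matches in wg and Doc2 is a 19-column position weight matrix built from 166 windows of IDR peaks outside the 45 loci, started from the word GTTTGACA. A window was called a match where its best score on either strand reached 9.86 bits, a threshold that about 1% of windows flanking the peaks pass. Matches were found under 4 of the 54 summits (7.41%) and under 10.9% of the 2908 summits outside the loci. The windows flanking those outside summits set the threshold, so their share of 0.980% was fixed by it. Of the 108 windows flanking the patterning summits, which did not set it, 1 matched (0.926%). The 10.9% includes windows that trained the matrix, and among peaks outside the training set the share was 5.24%. The word itself lay in 1 of the 54 windows, the sog one, where it reads TGTCAAAC on the plus strand, and in 2.65% of the summits outside.

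The matches did not sit under the strongest sites alone. Of the 27 patterning summits in the upper 50% of IDR signal, 2 matched (7.41%), against 18.4% of outside summits in the same range, which include the peaks that trained the matrix. In the lower 50% it was 2 of 27 (7.41%), against 3.30% outside. The matches in the upper range both lie in introns of ptc, under peaks with signal 837 and 242, and score 25.2 and 25.3 bits. The other matches, in wg at 22.5 bits and beside Doc2 at 15.8 bits, were under peaks with signal 113 and 86.2. The window under the strongest of the 54 peaks, in ush, scored -3.68 bits, and the slp1 and slp2 window -0.68 bits. The highest score without a match was 4.30 bits, under another intronic summit of ptc, so none of those windows was near the threshold. A missing match says only that these letters are not in the window. The 54 windows had a median GC content of 31.7%, against 33.7% outside the loci.

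Most of these summits were in introns or between genes and away from start sites. Of the 54 summits, 36 lay in introns (66.7%, against 53.0% of all IDR summits) and 18 between genes (33.3%, against 35.0%), and none lay in an exon. Only 10 (18.5%) were within 500 bp of the start of any gene, against 43.7% of all IDR summits. The gene body itself held a summit in 7 patterning genes (15.6%), against 8.39% of all genes: ush, ptc, nkd, cad, wg, sog and dpp. Those 7 bodies are from 9107 bp (wg) to 64341 bp (ush) long, and the 2 shares were not matched for gene length. When summits within 500 bp of another gene's start were set aside, 18 patterning genes (40.0%) still had one in the locus, against 24.0% of protein-coding genes, and btd alone was lost. Distances to a gene are to the nearest of its annotated starts. The distance from a summit to the nearest start of a patterning gene had a median of 6384 bp and ran from 501 bp, in ush, to 49141 bp, in the nkd locus.

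The peaks were close in strength to the IDR set as a whole. Their median signal value, the authors' own measure with no stated scale, was 125 against 129 for all IDR peaks, and 4 of the 54 were among the 296 strongest. Each overlapped a region in both replicate lists, where 92.6% of all IDR peaks did so in replicate 1 and 99.7% in replicate 3, so near-complete overlap is the background. Of the 54, 38 (70.4%) overlapped regions that ranked within the first 2962 of both, against 67.9% of all IDR peaks. A region ranked that high was present in the locus in both replicates for 17 patterning genes (37.8%), near the 37.2% of all genes. A region of any rank was present in both for 42 (93.3%), against 86.4%. The 17 are the 19 genes with an IDR summit other than odd and opa, whose replicate 3 regions ranked 3200 and 4345. With a single group there is no contrast between conditions to test, and values in the replicates are given side by side.

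**Figure D2:**
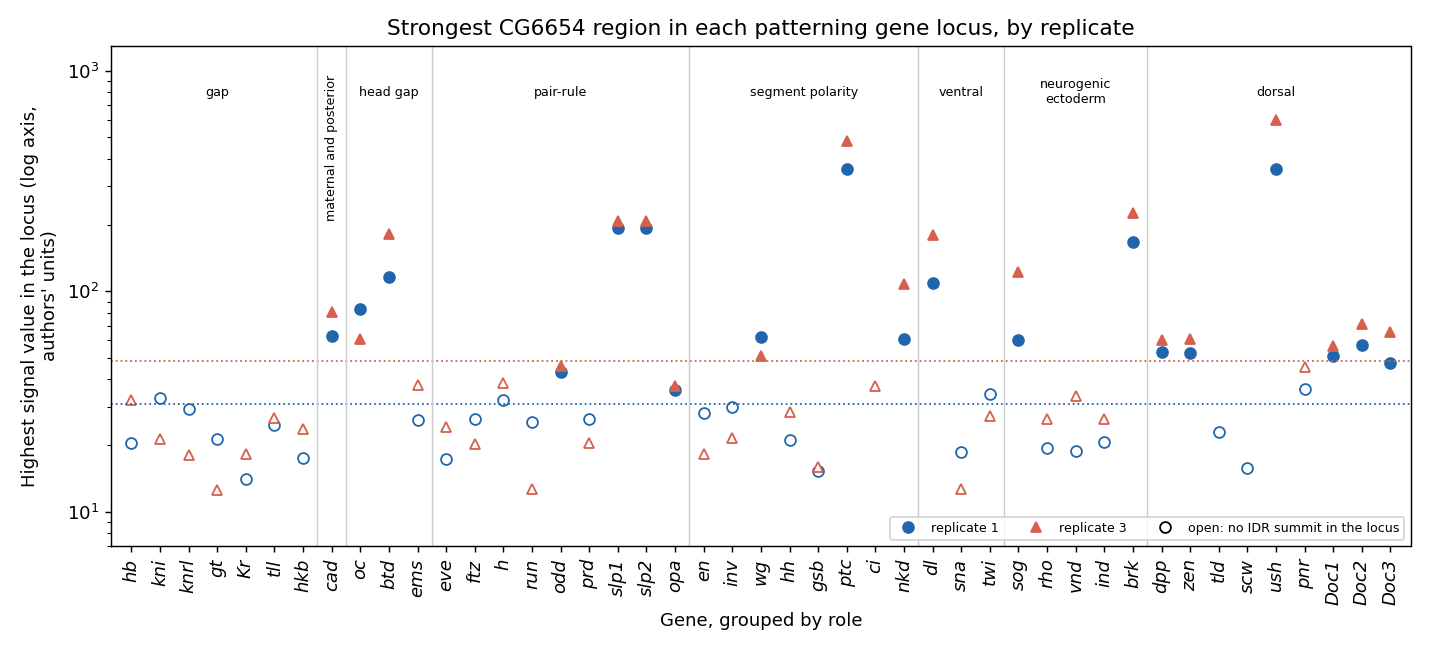
Highest signal value in each locus (log axis, authors' units) in the replicate 1 list (circles) and the replicate 3 list (triangles), for the 45 genes grouped by role; filled symbols have an IDR summit in the locus, and dotted lines mark the signal at rank 2962, 30.8 in replicate 1 and 48.4 in replicate 3. In both replicates ush and ptc are the highest, and the 7 gap genes are all open symbols at 33.0 or lower.

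The gap genes encode the first zygotic transcription factors of the cascade, and the pooled regions in their loci were all below the IDR set. The median over the 7 genes of the strongest pooled signal was 34.6, against 65.9 over all protein-coding genes. Over the 26 patterning genes without an IDR summit, gap genes included, it was 35.2. The IDR set is the top of the pooled list and starts at 74.8, so every locus without an IDR summit must fall below that value. At hb (hunchback) the strongest pooled region, signal 38.8, lay in an intron 318 bp from a start, with 17.9 in replicate 1 and 22.5 in replicate 3. Near tll (tailless), which patterns the embryo's ends, it was 39.4, in intergenic DNA 4825 bp from the start of Cpr100A, with 24.9 and 16.1. Ordered by that signal, the hb and tll regions ranked 7375 and 7220 of 30000 in the pooled list.

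The related nuclear receptor genes kni and knrl (knirps and knirps-related) differed between replicates. The highest kni region reached 33.0 in replicate 1, at rank 2663, and 21.3 in replicate 3, at rank 11500 and at another position. For knrl the values were 29.4 and 18.2, and its strongest pooled region (37.0) overlapped no region of replicate 3. For gt (giant) the strongest pooled region had a signal of 23.0, 146 bp from its start, and overlapped none in either replicate. Kr (Krüppel) reached 24.5, inside an intron of the neighbouring gene CG9380. hkb (huckebein), which acts at the termini with tll, had no pooled region at all, 17.5 at most in replicate 1 and 23.7 in replicate 3.

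cad (caudal), the homeobox gene of the posterior embryo, had IDR summits on either side of its 3′ end. One, of signal 137, lay in a cad intron at chr2L:20780757-20781140, with 56.5 in replicate 1 and 78.0 in replicate 3. The other, of signal 142, lay between genes at chr2L:20787216-20787599, 248 bp from the start of Pomp, a proteasome maturation factor, with 62.7 and 80.4. Of the head gap genes, oc (ocelliless, also called orthodenticle) had intergenic summits of signal 144 and 84.5, the first 15816 bp downstream of its innermost start and the second 6089 bp upstream of its outermost one. In replicates 1 and 3 the first measured 83.4 and 60.8. The btd (buttonhead) summit, at chrX:9687619-9687855, was stronger at 311, with 116 and 183, and lay 6462 bp upstream but only 465 bp from the start of lncRNA:CR42657. ems (empty spiracles) had none, and its strongest pooled region, 42.0, was 8770 bp upstream and overlapped no replicate 1 region.

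Among the pair-rule genes 4 of 9 had an IDR summit, and for slp1 and slp2 (sloppy paired 1 and 2, forkhead factors) it was the same one. This peak, at chr2L:3832398-3832643, had signal 413 and lay between the genes, 6861 bp downstream of the slp1 start and 4304 bp upstream of the slp2 start. It measured 195 in replicate 1, at rank 238, and 208 in replicate 3, at rank 330, so the replicates placed it alike. It is the only IDR summit in either locus.

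The other pair-rule summits were weak. That of odd (odd skipped, a zinc finger gene) had signal 93.4 and lay 8106 bp downstream of the start, with 42.9 and 45.8 in replicates 1 and 3. opa (odd paired) had one of 75.9, just above the lowest IDR signal, 5885 bp upstream, with 35.7 and 37.4. h (hairy, listed as hry in the annotation) was the nearest miss among all 45 genes: a region of signal 71.7 in its intron, 895 bp from a start, ranked 3118 in the pooled list. For the remaining stripe genes ftz (fushi tarazu), eve (even skipped), run (runt) and prd (paired), the strongest pooled regions were 31.8, 29.6, 29.5 and 25.8. The eve and prd regions overlapped none in either replicate list.

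Segment polarity genes held the second strongest of the 54 peaks. The ptc gene (patched, FBgn0003892, chr2R:8649649-8665223, plus strand), whose product receives and restrains the Hedgehog signal, had its lead peak in an intron at chr2R:8652139-8652606, 2696 bp from its start, with signal 837. It measured 358 in replicate 1, at rank 124, and 484 in replicate 3, at rank 118, and the summits lay within 11 bp of the pooled one. The start nearest to it was that of lncRNA:CR44281, 849 bp away, which was also the nearest for the other summits in ptc introns. A further summit of 168 lay in the same intronic stretch, summits of 242 and 78.7 lay deeper in the introns, and 151 and 77.4 lay 5269 and 4612 bp upstream. The last pair, 198 and 135, lay beyond the gene in an intron of Acsl, which encodes a long-chain acyl-CoA synthetase. Some weaker ptc sites stood far apart in rank between the replicates: the peak of 78.7 ranked 8684 in replicate 1 and 2111 in replicate 3.

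The other Hedgehog pathway genes among the 45, ci and hh, had no IDR summit in the locus. Of 6 more pathway genes on the further list described at the end, smo (198), ttv (117) and disp (95.1) had one. Each of those peaks lay nearest the start of another gene: CG17075, LamC and CG2017 in that order. fu, cos and Su(fu) had none. These pathway genes were named after their values were seen. ci, the transcription factor of the Hedgehog pathway, had no replicate 1 region in its locus on chromosome 4, and 37.3 at most in replicate 3. That chromosome held 41 regions in all of the replicate 1 list and 276 of the replicate 3 list, and the part of this in the ci values was not tested. hh, which encodes the ligand, reached 38.3 in the pooled list, in an intron 1581 bp from its start, with 28.4 in replicate 3 and no overlapping region in replicate 1.

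On the Wingless side, wg, which encodes the ligand, had 1 intronic summit of signal 113 at chr2L:7310548-7310931, 3581 bp from its start. It was one of the sites ranked higher in replicate 1, at 62.3 and rank 1179, than in replicate 3, at 50.9 and rank 2734. nkd (naked cuticle), an antagonist of Wingless signalling, had 4 summits across a 61709 bp locus. Those in its introns had signal 135, 138 and 85.3, at 2816, 20465 and 12138 bp from its start, and the last, of 140, lay 499 bp from the start of CG18135. The summits of 138 and 85.3 were nearer the start of lncRNA:CR45940, at 8916 and 589 bp. en and inv, the paired engrailed homeobox genes, and gsb (gooseberry) had none, with 31.3, 39.4 and 29.6 at most in the pooled list.

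**Figure D3:**
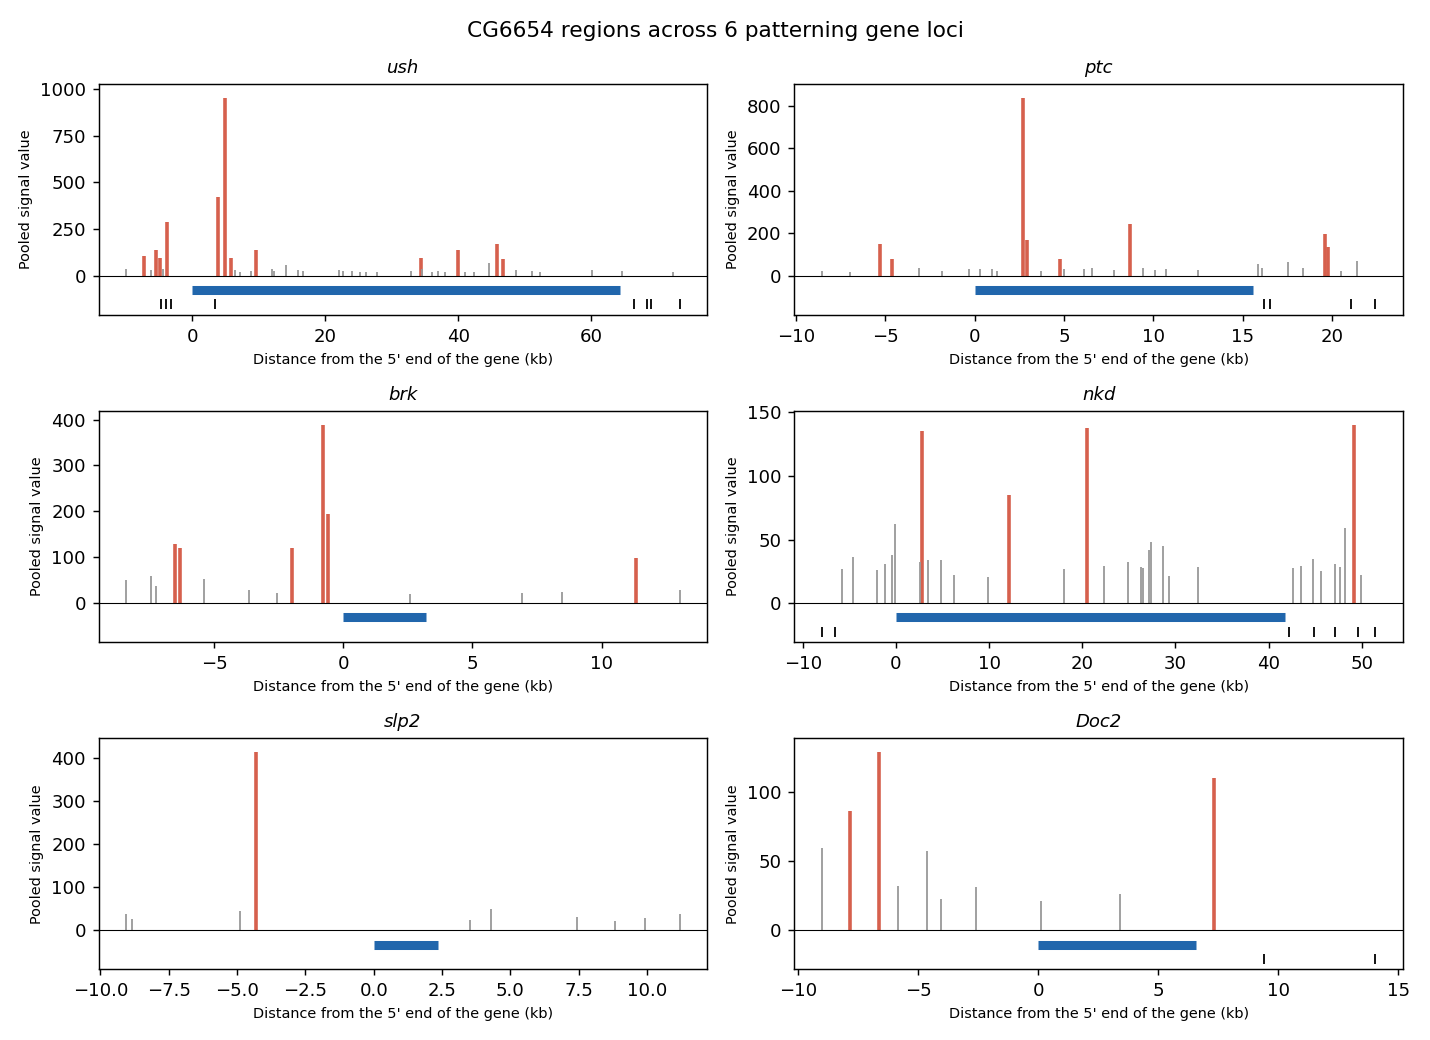
Pooled signal values (authors' units) by distance from the 5′ end of the gene (kb) in 6 loci; tall red lines are IDR peaks, grey lines are other pooled regions, the blue bar is the gene body and black ticks are starts of other protein-coding genes. The IDR summits lie on both sides of a long empty stretch in ush, gather before the brk start and, at slp2, form 1 peak.

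On the ventral side, sna (snail) and twi (twist), which direct mesoderm formation, had no IDR summit, with pooled maxima of 31.3 and 46.3. dl, which encodes the Dorsal morphogen itself, had summits of 285 and 110, but these lay 15372 and 15170 bp from its start in an intron of Dif, the neighbouring Rel-family immune factor, and the stronger was 489 bp from the start of lncRNA:CR44409. The stronger measured 109 in replicate 1 and 181 in replicate 3.

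Of the neurogenic ectoderm genes, brk (brinker, FBgn0024250, chrX:7307939-7311132, plus strand) had 6 summits in a locus of 23194 bp. By summits this was the densest of the 3 leading loci, at 25.9 per 100 kb. Where overlapping peaks are merged, brk has 4 regions, ptc 6 and ush 12. The lead peak, at chrX:7306967-7307305, had signal 388 and its summit was 780 bp upstream of the brk start, with 168 in replicate 1 and 226 in replicate 3. It ranked 295 and 302, close to the same place in both lists. A second summit of 195 was 573 bp upstream, and 119, 121 and 129 followed at 1989, 6306 and 6510 bp upstream. All of these lie inside introns of CG1677 and lncRNA:CR44357, which overlap the region, and the last, of 98.7, lies on the far side of brk in Atg5, an autophagy gene.

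sog (short gastrulation), which encodes the extracellular inhibitor of Decapentaplegic, had intronic summits of 177 and 99.6, at 6997 and 3487 bp from its start. The first measured 60.1 in replicate 1 and 122 in replicate 3. The homeobox genes vnd and ind, which specify columns of the nervous system, and rho (rhomboid), a protease of the EGF pathway, had no IDR summit. Their strongest pooled regions were 37.2, 35.7 and 34.2, and none of the 3 regions overlapped one in replicate 1.

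The dorsal genes had a summit in 6 of 9 loci. In ush (FBgn0003963, chr2L:476220-540560, plus strand), whose product binds the GATA factor Pannier, the 12 summits lay in a locus of 84341 bp, 14.2 per 100 kb. They ran from -7.325 to 46.745 kb of the gene's 5′ end, with none between 9.653 and 34.410 kb. Of the 203 genes with a locus at least as long, 3 held as many or more, ush included. The lead peak, at chr2L:480930-481255, had signal 952, 358 in replicate 1 (rank 125) and 602 in replicate 3 (rank 95), and lay in an intron 4877 bp from the first start of ush. The start nearest to it was that of cbt (cabut), a zinc finger gene nested in ush, 1409 bp away. The next peak, of 421, also lay in a ush intron, 370 bp from the cbt start. A peak of 288 lay upstream of ush, 262 bp from a start of CG4297, and 3 more summits, of 141, 108 and 96.5, lay in CG4297 introns. The 6 others, all in ush introns, had signal from 89.6 to 170. By rank, the peak of 96.5 was the least even of the 54, at 14.1 and rank 23311 in replicate 1 but 71.3 and rank 1699 in replicate 3.

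pnr (pannier), the GATA partner of U-shaped, had no IDR summit. Its strongest pooled region, 48.8, lay in the 5′ UTR, 57 bp from a start, with 29.1 in replicate 3 and no overlapping region in replicate 1. dpp, the BMP-type ligand of the dorsal side, had 1 intronic summit of 117 at chr2L:2433624-2433719, with 53.0 and 60.1. Those of zen (zerknüllt), which specifies the amnioserosa, are shared ground: 95.0 lay 205 bp from the start of bcd, the maternal head gene, 94.4 lay 310 bp from Ama (amalgam), and 75.4 lay between genes. tld (tolloid) and scw (screw), a Sog-cleaving protease and a second BMP ligand, had none. tld reached 36.4 in the pooled list, in a coding exon of the neighbour tok, and scw had no pooled or replicate 3 region.

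The T-box genes Doc1, Doc2 and Doc3, a cluster expressed in the amnioserosa and dorsal ectoderm, had 7 distinct summits among them. Doc1 had 3, all between genes: a pair upstream of its start, the weaker with signal 75.1, and 1 of 90.0 downstream. The start nearest the pair was that of lncRNA:CR46451, and the summit of 90.0 lay nearest Argk2, 1980 bp from its start. Doc2 had 129 and 86.2 upstream of its start, and shared with Doc3 one of 110 between them, for which the nearest start was that of CG5194, 2081 bp away. That of 94.2 at Doc3 was 137 bp from the start of smg (smaug), a translational repressor. The Doc2 peak of 86.2, whose window is printed above, was higher in replicate 1 (57.2, rank 1306) than in replicate 3 (33.5, rank 5164).

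Counted over all regions, those overlapping IDR peaks included, the replicate lists differed by locus. More regions fell in the locus in replicate 1 than in replicate 3 for 24 of the 45 genes (53.3%), against 35.2% of all protein-coding genes, and fewer for 17 (37.8%), against 55.9%. Among the 26 genes without an IDR summit replicate 1 had more in 18 (69.2%). Among the 19 with one, replicate 3 had more in 11 (57.9%), near the 55.9% of all protein-coding genes. The shares over all genes were not split by IDR summit. Since both lists have a fixed 30000 regions, a locus can gain regions in a list only where others lose them.

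**Figure D4:**
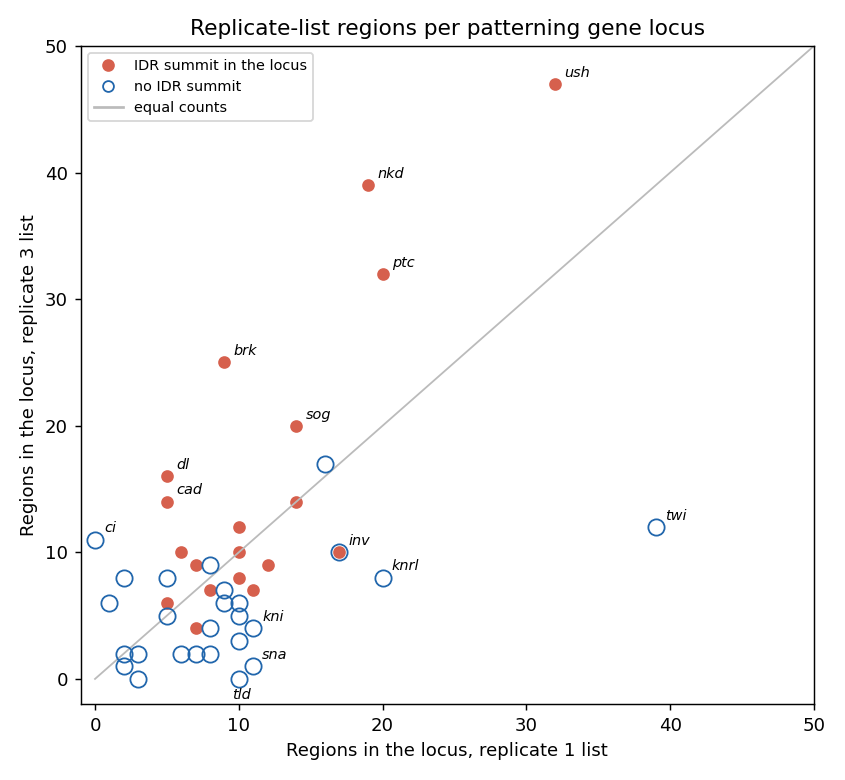
Number of regions in the locus in the replicate 1 list (horizontal) against the replicate 3 list (vertical), 1 symbol per gene; filled symbols have an IDR summit in the locus, and the grey line marks equal counts. twi lies far to the right with 39 regions against 12, while ush, nkd, ptc and brk lie above the line.

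The extremes of that plot were twi, with 39 regions in replicate 1 and 12 in replicate 3, knrl, with 20 and 8, sna, with 11 and 1, and tld, with 10 and 0. On the other side, ush had 32 and 47, nkd 19 and 39, ptc 20 and 32, and brk 9 and 25. The twi locus is the second longest of the 45, at 82952 bp. Of its 39 regions in replicate 1, 3 ranked within the first 2962, the highest with signal 34.4 at rank 2503, and in replicate 3 none did, the highest being 27.1 at rank 7361. Read totals are not in the lists, and the part of depth in these counts was not tested.

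Other genes of the same axes, taken from lists made for this comparison with earlier results known, were read in the same way. Of 38 further head-to-tail genes 25 had an IDR summit in the locus (65.8%), and of 42 further dorsoventral genes 29 did (69.0%), beside 46.8% of all protein-coding genes. Their loci were longer, with medians of 27673 and 29536 bp. The start itself was bound in 6 genes of each list (15.8% and 14.3%, beside 10.9% of all genes). The difference from the 45 genes was not tested.

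Those with a summit within 500 bp of their own start were sgg (Shaggy kinase of the Wingless pathway, 375), gro (the corepressor Groucho, 356), bowl (233), fkh (132), cnc (103) and bcd (95.0) on the first axis. On the second they were spi (the EGF ligand Spitz, 354), cact (Cactus, the inhibitor of Dorsal, 227), Dr (180), stumps (157), tin (138) and htl (91.1). The tin peak overlapped no region of replicate 1 and measured 92.0 in replicate 3. That of fkh measured 20.1 in replicate 1 and 112 in replicate 3. Those of spi (215 and 141) and stumps (78.5 and 76.5) were higher in replicate 1. Over whole loci the strongest was the peak of 3948 in the locus of cv-2 (crossveinless 2, a BMP-binding protein), for which the nearest start is that of bisc. After it came C15 (503), wbl (371), spi and Med (348) on the dorsoventral list, and ken (275), bowl (233) and tor (225) followed sgg and gro on the other. The peaks of C15, wbl, Med and tor also lay nearest another gene's start: sp3, CG33453, Mnat9 and LRR in that order.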

How the data were processed

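The lists for dm6 were used: the IDR set, the pooled list and 1 list per replicate. Regions were derived by the authors from each replicate and from both together, per the list of derived files supplied with each library. For the aligner, the caller, their versions and the IDR cutoff: not given in the sources used here. Every entry holds the authors' signal value (a score with no stated scale), a deposited −log10 q-value, which was not used, and the offset of the summit from the region start, a position from which every summit here was computed. The replicate and pooled lists hold 30000 regions each, so depth is unknown. The IDR set is the first 2962 pooled regions by signal. dm3 lists were not used.

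Genes came from Ensembl release 115 on genome Release 6 (44 of the 45 by symbol, 1 by synonym). A summit was put in each locus holding it, and ranks are by signal. Sequence was read with pysam 0.24.0 in Python 3.11.15, and plots were made with Matplotlib 3.10.9. The members, gene lists and word rule were chosen with earlier results of these data known, and the matrix and 2 alternatives after seeing the data. Named genes are members with IDR summits and the 15 without of highest pooled signal, other members by their maximum, and 5 genes per further list plus those bound at the start. Scripts were tested on simulated data. The labels name a control experiment, not analysed here. Replicates are separate biosamples of 1 line.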

Additional observations from a re-analysis of the deposited data

How the results depend on the processing

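The 19 genes with an IDR summit in the locus became 7 with the gene body alone and 29 with flanks of 20 kb, where the share (64.4%) again lay near the background (63.8%). With the upper 50% of IDR peaks 12 genes and 1.95 summits per 100 kb were left, since fewer peaks are counted. With the first 2962 regions of a single replicate in place of the IDR set, the number of genes was 17 without replicate 1 (37.8%, background 47.2%) and 23 without replicate 3 (51.1%, background 43.2%), so the side of the background depends on the replicate, and the density was 3.46 to 4.11 per 100 kb. Without the 3 loci with the most summits, an alternative chosen after seeing the data, the density of 3.89 fell to 2.25. Within 1000 bp of a start, 2 genes had a summit in place of 0: ush at 501 bp and brk at 573 bp (4.44%, background 13.1%). With 1481 top-ranked regions per replicate, 10 genes in place of 17 had one in both. The other 12 values lay within 1.5 times the main count or within 1 SD of the replicates, but 2 of them could not have moved: the first 2962 pooled regions are the IDR set itself, and a 250 bp window must give 0 where 500 bp does. The single-replicate densities, 3.46 and 4.11, were judged by the SD between replicates, so they are not independent checks. Depth is unknown, so a missing peak may be a site below detection. No paired analysis was possible because the samples form 1 group.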
